A study of Mus musculus with 3 samples.

Results

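Pou5f1 and Nanog were examined as a pair of loci, site by site, in MethylRAD libraries of differentiating mouse embryonic stem cells (ESCs). Every CCGG position in either gene or within 20 kb of it was taken, by the GENCODE M21 annotation of GRCm38, which gave 81 positions around Pou5f1 and 42 around Nanog. Of these 123 positions, 91 were listed with reads in at least 1 of the 3 libraries (65 at Pou5f1 and 26 at Nanog), of 1026125 CCGG sites listed in the whole series. The Pou5f1 positions include 2, at +20216 and +23106 from the start site, that have no CCGG in the reference and were read as CCGG in the libraries.

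The cells were E14Tg2A, an established wild-type mouse ESC line. The undifferentiated library came from cells kept with leukemia inhibitory factor (LIF) on day 0. The untreated library came from the same line on day 7 after LIF was withdrawn and retinoic acid was added. The treated library came from cells on day 7 of that differentiation with 3 mM pargyline, an inhibitor of the histone demethylase LSD1. Each condition had 1 library, so no difference could be set against a spread between replicates, no test between conditions was made and the 95% intervals below cover counting error only. Whether cells of repeated cultures were pooled for a library is not given in the sources used here.

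In MethylRAD, the enzyme FspEI cuts beside a methylated cytosine and releases a short fragment with the methylated site at its centre. Reads at a CCGG therefore report methylated copies of it, whereas copies without methylation give none. FspEI recognizes 5-hydroxymethylcytosine as well as 5-methylcytosine, so methylated copies here can carry either, and the reads do not tell which. A read count is not a percentage of methylation, because uncut copies are not seen. The deposited lists start at 5 reads, so a position that was not listed had between 0 and 4 reads. The CCGG sites held 31614085 reads in the undifferentiated library, 36654600 in the untreated library and 25767119 in the treated library, and counts were scaled to 1000000 CCGG reads of their own library (scaled reads). With the deposited RPM values, which divide by the mapped reads of the library, every log2 ratio below would be lower by 1 amount per comparison: it moves by -0.32 for untreated over undifferentiated, -0.69 for treated over undifferentiated and -0.38 for treated over untreated cells. The median CCGG site had 26, 30 and 23 reads in these libraries, and 52.1%, 52.9% and 53.4% of the 1630167 CCGG motifs of the reference were listed.

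Pou5f1 encodes OCT4, a POU domain transcription factor, and Nanog encodes a homeodomain transcription factor. Both proteins belong to the core of the gene network that keeps ESCs undifferentiated, and both genes are silenced as the cells leave pluripotency. Pou5f1 is controlled by its promoter and by a proximal and a distal enhancer in the few kilobases upstream, and silencing of this stretch with DNA methylation is a textbook case of de novo methylation in differentiating ESCs. Nanog is controlled by a promoter to which OCT4 and SOX2 bind and by an enhancer several kilobases upstream.

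Positions are given below as the distance in base pairs from the transcription start site, minus for upstream. Pou5f1 (ENSMUSG00000024406.16) lies on the plus strand of chromosome 17 at 35506018 to 35510772, with the start site of its principal transcript at 35506018. Nanog (ENSMUSG00000012396.12) lies on the plus strand of chromosome 6 at 122707489 to 122714633, with the start site of its principal transcript at 122707568. The following sequences are 30 bases of the GRCm38 reference, plus strand, around promoter and upstream sites within 5 kb of the Pou5f1 start site that both day 7 libraries listed, with the CCGG in capitals. The first lies in the upstream region, the next pair before the start site, the fourth in the first coding exon and the fifth in an intron.
Pou5f1 -2615, chr17:35503390-35503419: gttgggaccgcacCCGGcccaaagtgactc
Pou5f1 -672, chr17:35505333-35505362: gaggaaagaggccCCGGccttaactgtgag
Pou5f1 -209, chr17:35505796-35505825: gtttgtgaggtgtCCGGtgacccaaggcag
Pou5f1 +157, chr17:35506162-35506191: agcagggctggagCCGGgctgggtggatcc
Pou5f1 +626, chr17:35506631-35506660: caagaatcagaaaCCGGcctggattgtttc

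For Nanog, the sequences shown are those of the 5 listed sites within 5 kb of the start site, in the same form: an upstream intergenic pair, then the promoter sites and the 1 position of the gene body, which are intronic.
Nanog -3014, chr6:122704541-122704570: aattccaggatagCCGGggctacatagaga
Nanog -2149, chr6:122705406-122705435: atggctgctttagCCGGgtgtggtggcaca
Nanog +514, chr6:122708069-122708098: cctctgagtttgaCCGGtgatacgttggcc
Nanog +551, chr6:122708106-122708135: ctgaaatagagatCCGGgacacaggacgga
Nanog +3313, chr6:122710868-122710897: aaagtaaatatagCCGGgcgtttaatccca

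To ask where reads around Pou5f1 changed with differentiation, the sites within 5 kb of its start site were compared first. In undifferentiated cells, this stretch was almost without reads: 2 of its 18 CCGG positions were listed, with 18 reads. On day 7, 13 positions were listed with 257 reads in untreated cells, and 8 positions with 160 reads in treated cells. No position of this stretch was lower in either day 7 library. Scaled, the reads were 12.3-fold higher in untreated than in undifferentiated cells (95% exact interval 7.64 to 21.1) and 10.9-fold higher in treated cells (6.68 to 18.9). With 4 reads placed at every unlisted position of each library, the folds were 2.91 and 2.99, and with 4 reads at the unlisted positions of the undifferentiated library alone, the least the lists allow, they were 2.70 and 2.39.

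The promoter of Pou5f1 (within 1 kb of the start site) holds 6 CCGG motifs. It had 6 reads at 1 site in the undifferentiated library, 124 reads at 5 sites in the untreated library and 83 reads at 4 sites in the treated library. Scaled to CCGG reads, these were 0.190, 3.38 and 3.22 scaled reads. The untreated level was 17.8-fold the undifferentiated level (7.96 to 49.5), and the treated level 16.97-fold (7.48 to 47.6). With 4 reads at every unlisted position the folds were 4.25 and 4.29. With the deposited RPM the log2 ratios remained high, at 3.84 and 3.39. Between the day 7 libraries the promoter differed by 0.952-fold, treated over untreated, with a counting interval of 0.712 to 1.27. This depended on the scaling and on 1 site: by deposited RPM the ratio was 0.734 (0.549 to 0.977; log2 -0.45), and without the site at -209 the CCGG-scaled log2 ratio was 0.48, in the other direction.

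The site at -209 was the only promoter site that all 3 libraries listed. It had 6 reads in undifferentiated, 74 in untreated and 34 in treated cells, so that both day 7 libraries were high. The ratio to the undifferentiated level was 10.6 in untreated cells (4.66 to 29.9) and 6.95 in treated cells (2.89 to 20.3). Among all CCGG sites listed in its library, this site stood at percentile 85.0 of the read counts in untreated cells, 68.0 in treated cells and 5.28 in undifferentiated cells (ties counted at mid-rank). The treated level was 0.654 of the untreated level (0.422 to 0.994), the 1 promoter site where the counting interval between the day 7 libraries excluded 1.

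The other promoter sites were not listed in undifferentiated cells. At -672, 21 reads were listed in untreated and 18 in treated cells, which is at least 4.53-fold and 5.52-fold the undifferentiated level, since that level was at most 4 reads. At +157, in the first coding exon, there were 13 and 19 reads (at least 2.80-fold and 5.83-fold). At +626, in an intron, there were 10 and 12 reads (at least 2.16-fold and 3.68-fold). These bounds do not include the counting error of the day 7 counts. The remaining 2 positions behaved otherwise: +564 was listed in untreated cells alone with 6 reads, and +57, in the 5′ UTR, was listed in no library.

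Upstream of the promoter, 2 positions lie between 1 and 5 kb. The site at -2615 was absent from the undifferentiated list and had 25 reads in untreated and 21 reads in treated cells, at least 5.39-fold and 6.44-fold higher. It lies in the few kilobases that hold the Pou5f1 enhancers, although the annotation used here marks no enhancer. The neighbouring position at -1070 was listed in no library.

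The gene body beyond the promoter holds 10 motifs, mostly intronic. In undifferentiated cells 1 of them was listed, with 12 reads, against 7 with 108 reads in untreated cells and 3 with 56 reads in treated cells. Scaled, the gene body was 7.76-fold higher in untreated cells (4.27 to 15.5) and 5.73-fold higher in treated cells (3.03 to 11.7), or 2.16-fold and 2.15-fold with 4 reads at every unlisted position. Treated over untreated, the gene body was at 0.738-fold (0.524 to 1.03) with CCGG scaling, an interval that includes 1, and at 0.569-fold (0.404 to 0.792) by deposited RPM, an interval that does not.

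The intron site at +2031 was listed throughout, with 12 reads in undifferentiated, 30 in untreated and 23 in treated cells. These are ratios of 2.16 (1.07 to 4.62) and 2.35 (1.12 to 5.19), so both day 7 libraries were above the undifferentiated one. The intron site at +2169 had 18 reads in untreated and 27 in treated cells, at least 3.88-fold and 8.28-fold. At +1237, also intronic, 13 reads were listed in untreated and 6 in treated cells. Thus the sites that both day 7 libraries listed lie in the 5′ part of the gene and just upstream of it.

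The 3′ part of Pou5f1 was listed in the untreated library alone. The intron sites at +2497 and +2505 had 10 reads each, and since they are 8 bp apart and can be read from the same fragment, they are not independent. The coding exon sites at +3992 and +4293 had 11 and 16 reads. None of these 4 sites was listed in undifferentiated or treated cells. An unlisted site in the treated library had at most 4 of 25767119 reads, so the treated level at +4293 was at most 0.356 of the untreated level and at +3992 at most 0.517, but with 4 treated reads the counting intervals (0.0865 to 1.102 and 0.120 to 1.75) include 1. Both exon sites also lie within an intron of Gm19553, an antisense gene annotated over the end of Pou5f1. The positions at +1325, +1770 and +3609 were listed in no library.

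**Figure D1:**
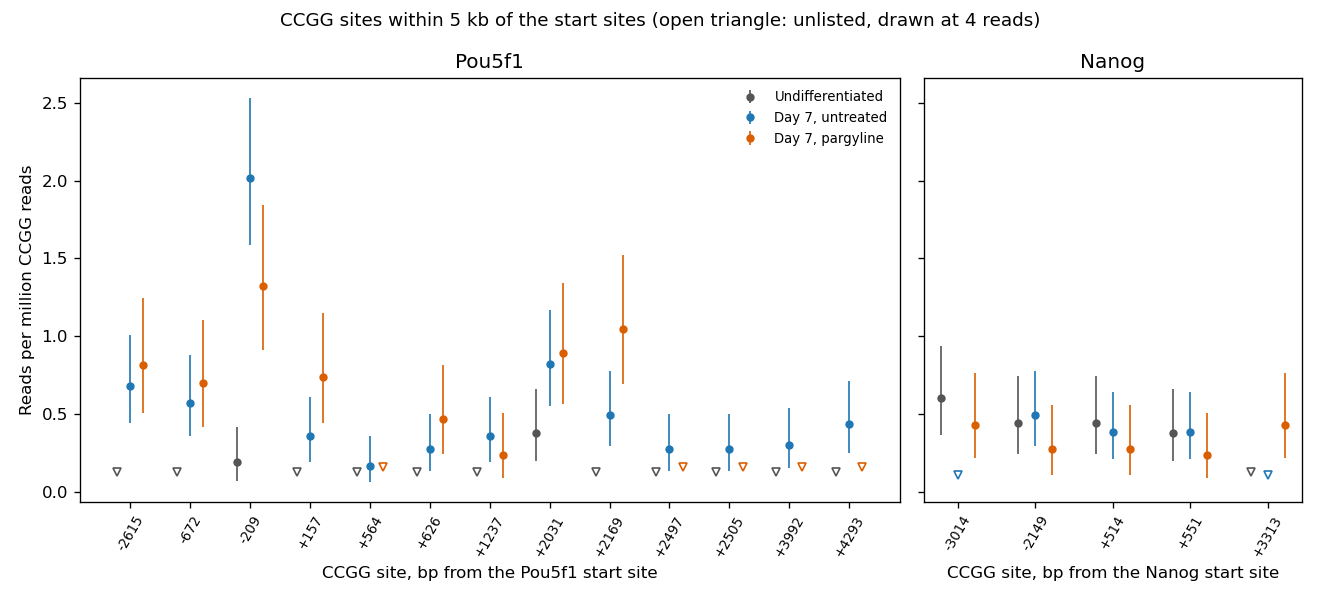
CCGG reads per 1000000 CCGG reads of the library (vertical axis) at each listed site within 5 kb of the Pou5f1 and Nanog start sites (horizontal axis, base pairs from the start site), for the undifferentiated, untreated and treated (pargyline) libraries of 1 each. Bars are 95% exact Poisson intervals of the count, and open triangles mark unlisted positions at the 4 reads they can hold at most. At Pou5f1 2 sites carry undifferentiated reads and 13 carry untreated reads, whereas at Nanog 4 of the 5 sites carry undifferentiated reads.

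Promoter and gene body of Pou5f1 together had 2 of 16 motifs listed in undifferentiated cells (12.5%, Wilson interval 3.50 to 36.02). In untreated cells 12 of the 16 were listed (75%, 50.5 to 89.8) and in treated cells 7 (43.8%, 23.1 to 66.8). Over the genome the share of motifs listed was nearly the same in all 3 libraries, as given above. All 18 positions within 5 kb had low CpG content and 30 surrounding bases with no exact copy elsewhere on the assembled chromosomes. Copies with 1 mismatch numbered 1 for +157, 12 for +2497 and 1 for +4293, sites that were listed on day 7 alone, and their part in these counts was not tested.

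The Pou5f1 promoter stood near the upper end of the promoters with enough reads to be ranked. Of 12831 protein-coding genes with at least 20 promoter CCGG reads over the 3 libraries, 2 had a higher ratio of untreated to undifferentiated reads than Pou5f1, whose log2 ratio was 4.16 against a median of 0.27 over all of them. For treated over undifferentiated reads, 134 genes (1.04%) were higher than Pou5f1 (log2 ratio 4.09, median of all genes 0.68). As background, 25.8% of promoters were past 2-fold higher and 9.48% past 2-fold lower in untreated cells, and 40.8% and 6.99% in treated cells. Pou5f1, with 6 undifferentiated, 124 untreated and 83 treated reads, reached the minimum of 20 through the day 7 libraries, where it was high. Genes that passed in this way are also part of the background, so the rank is a description. Between the day 7 libraries Pou5f1 had a log2 ratio of -0.07 against a median of 0.37, and 28.1% of genes were lower. In these ratios a gene with no listed promoter read in a library was given 4 reads there, whereas the unlisted sites of Pou5f1 beside its 6 undifferentiated reads counted as 0. With 4 reads at every unlisted position of every promoter, the Pou5f1 log2 ratios were 2.09 and 2.10, and 34 genes (0.265%) and 122 genes (0.951%) were higher.

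**Figure D2:**
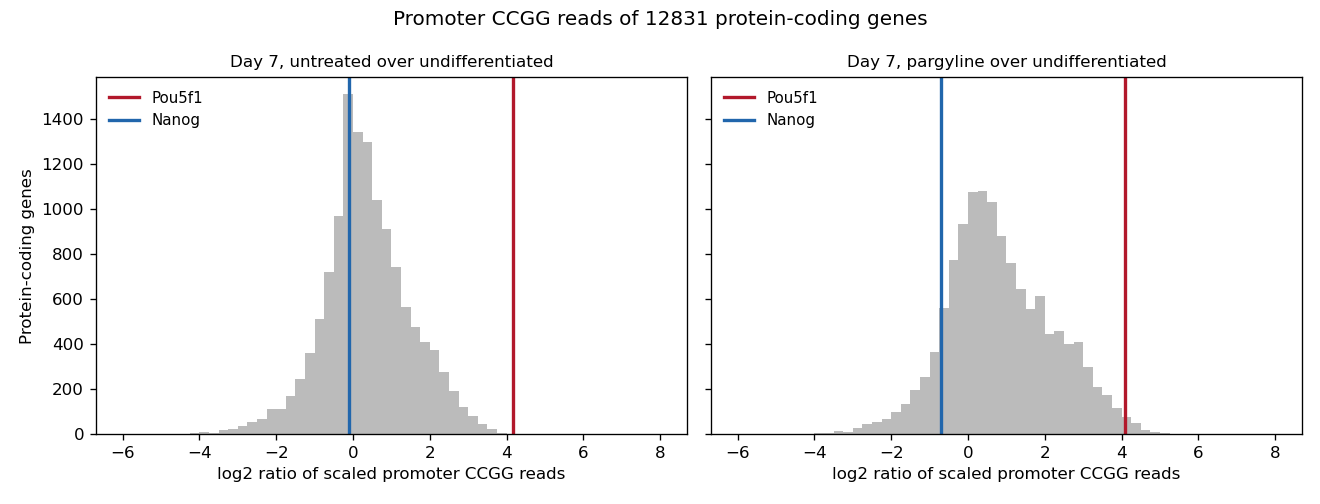
Histograms of the log2 ratio of promoter CCGG reads, scaled to the CCGG reads of each library, over 12831 protein-coding genes (vertical axis, number of genes), for untreated over undifferentiated and treated over undifferentiated cells. Vertical lines mark Pou5f1, at 4.16 and 4.09, in the upper tail of both, and Nanog, at -0.11 and -0.70, below the median of both.

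Farther from the start site, the picture around Pou5f1 was mixed. Between 5 and 20 kb upstream, 17 positions had 336 reads in undifferentiated, 533 in untreated and 278 in treated cells. Scaled, this was 1.37-fold higher in untreated cells (1.19 to 1.57), while treated cells were at 1.02-fold (0.863 to 1.19). In the 46 downstream positions, which cover Tcf19 and most of Cchcr1, the reads were 964, 1168 and 792, or 1.05-fold (0.959 to 1.14) and 1.01-fold (0.916 to 1.11). The whole locus thus came to 1.28-fold in untreated (1.19 to 1.38) and 1.15-fold in treated cells (1.06 to 1.24), and outside promoter and gene body the untreated ratio was 1.15 (1.07 to 1.23). These flank and locus values depended on the scaling. By deposited RPM the locus was at log2 0.038 in untreated and -0.50 in treated cells, and the untreated ratio outside promoter and gene body turned to 0.918 (0.854 to 0.987). The stretch from 5 to 20 kb upstream was then at 1.097 (0.955 to 1.26) in untreated and 0.627 (0.533 to 0.737) in treated cells, and the downstream part at 0.838 (0.769 to 0.913) and 0.623 (0.566 to 0.685). Across loci drawn in the same way around 21081 protein-coding genes with at least 100 reads, 4.62% had a higher untreated ratio than Pou5f1 and 17.9% a higher treated ratio.

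**Figure D3:**
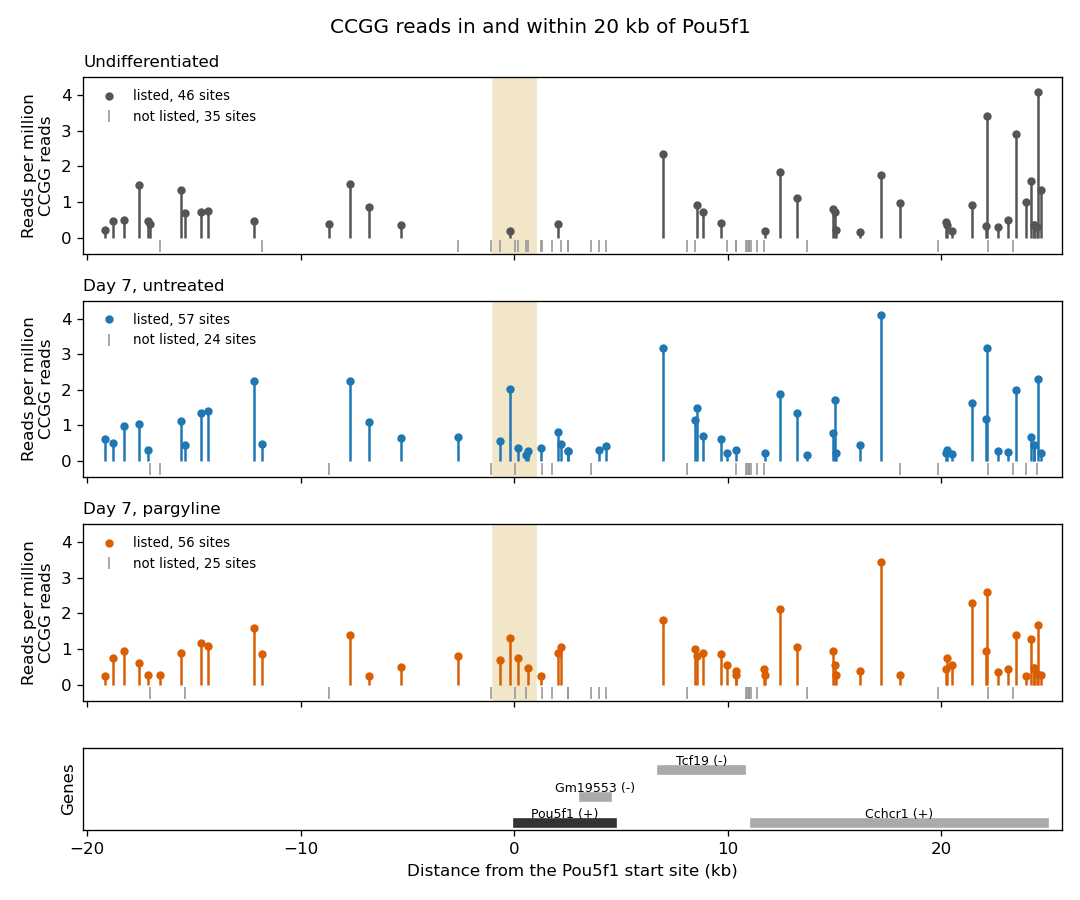
CCGG reads per 1000000 CCGG reads of the library (vertical axis) against the distance from the Pou5f1 start site in kb, in the undifferentiated, untreated and treated (pargyline) libraries, with the annotated genes below. Stems are listed sites, grey ticks are positions not listed and the shaded band is the promoter. The stretch within 5 kb of the start site is nearly empty in undifferentiated cells and carries stems in both day 7 libraries, while the flanks carry stems in all 3.

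Counted by site, 21 of 62 comparable Pou5f1 positions (33.9%) were past 2-fold higher in untreated than in undifferentiated cells and 9 (14.5%) past 2-fold lower, beside 16.1% and 19.5% of all CCGG sites in the series. By deposited RPM these were 13 and 10, beside 9.85% and 26.4% of all sites, and among sites listed in both libraries 8 and 4, beside 14.5% and 15.9%. Of the 21 higher in untreated cells with CCGG scaling, 12 lie within 5 kb of the start site. For treated over undifferentiated cells, 21 of 59 (35.6%) were higher and 10 (16.9%) lower, beside 23.7% and 17.8% of all sites. By deposited RPM these were 11 and 15, beside 10.5% and 35.6%, and among sites listed in both libraries 9 and 7, beside 19.2% and 15.2%. At 10 of the 65 listed positions both day 7 libraries and not the undifferentiated one had the site, against 6.46% of all listed sites, and 6 of these 10 lie within 5 kb of the start site. Of the 65, 2 were listed in the undifferentiated library alone, which with so few positions is near the background of 5.31%.

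Upstream, the highest ratio in a site listed in all 3 libraries was at -12163, with 15, 82 and 41 reads in undifferentiated, untreated and treated cells (4.72-fold, 2.70 to 8.81, and 3.35-fold, 1.82 to 6.52). The next site toward the gene, at -11807, was unlisted in undifferentiated cells and had 18 and 22 reads on day 7, at least 3.88-fold and 6.75-fold. At -19178 the counts were 7, 23 and 6, so that the untreated library alone was high. The site at -16606 was listed in treated cells alone, with 7 reads.

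Other upstream sites were lower on day 7. The sites at -17030 and -8657 each had 12 reads in undifferentiated cells and were unlisted in both day 7 libraries, at most 0.288 and 0.409 of the undifferentiated level. In the treated library alone, -17569 (47, 38 and 16 reads), -15425 (22, 17 and unlisted) and -6811 (27, 40 and 6) were past 2-fold lower than in undifferentiated cells. All of these upstream sites are annotated as intergenic.

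Downstream lies Tcf19, which encodes a nuclear protein with a forkhead-associated domain and is transcribed toward Pou5f1. Its coding exon site at +8485 was unlisted in undifferentiated cells and had 42 reads in untreated and 26 in treated cells, at least 9.06-fold and 7.98-fold, the highest bounds for any flanking site. A site 93 bp away in the same gene, at +8578, had 29, 55 and 21 reads, within 2-fold in both comparisons. Smaller counts were listed on day 7 alone at +9946 (unlisted, 8 and 14 reads) and at +10395 in the 5′ UTR (unlisted, 11 and 10), while +10371, 24 bp from it, was listed in treated cells alone with 7 reads. At +9684 the counts were 13, 23 and 22, past 2-fold in treated cells only (2.08, 1.001 to 4.49).

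Tcf19 and Cchcr1, which encodes a coiled-coil protein, start close to each other on opposite strands, and the stretch between them and into the start of Cchcr1 was empty. The 7 CCGG positions from +10850 to +11377 were listed in no library, although the 30 bases around each occur once on the assembled chromosomes. Of these 7, 6 have high and 1 intermediate CpG content, and they include every high-CpG position of the locus. At the edge of this stretch, +11675 was listed in treated cells alone, with 11 reads. By gene, the promoter counts of Tcf19 were 6, 27 and 49 over 12 motifs, and those of Cchcr1 6, 19 and 35 over 11 motifs, with many motifs in common.

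In the body of Cchcr1, a few sites were deep among many shallow ones, and its intron site at +17188 was the deepest of the locus, with 56, 150 and 89 reads. It was 2.31-fold higher in untreated (1.69 to 3.20) and 1.95-fold higher in treated cells (1.38 to 2.78), and on day 7 it stood at percentiles 99.5 and 99.6 of all listed sites of those libraries. The second deepest, the exon site at +22141, had 108, 116 and 67 reads and stayed within 2-fold, whereas the exon site at +22102, 39 bp away, had 10, 43 and 24 (3.71-fold, 1.84 to 8.28, and 2.95-fold, 1.36 to 6.90). Sites with higher ratios on day 7 also included +16214 with 5, 17 and 10 reads and +21442 with 29, 60 and 59. In contrast, +15039 was high in untreated cells alone (23, 63 and 14), and +20265 (11, 11 and 19) and +20518 (6, 7 and 14) in treated cells alone.

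Toward the far end of the window, several sites in Cchcr1 were lower on day 7, beside others that were within 2-fold or, as +20265, +20518, +21442 and +22102 in treated cells, higher. At +18084 31 reads in undifferentiated cells stood against none listed in untreated and 7 in treated cells, and at +23944 32 reads stood against none listed and 6. At +24650 the counts were 42, 8 and 7 (0.164, 0.0666 to 0.354, and 0.205, 0.0775 to 0.459). The third deepest site, +24507, had 129, 84 and 43 reads (0.562, 0.422 to 0.745, and 0.409, 0.283 to 0.582), and +23484 had 92, 73 and 36 (0.684 and 0.4801). Past 2-fold lower in untreated cells alone were +24212 (50, 25 and 33), +23106 (16, 9 and 11), +20216 (14, 8 and 11) and +24476 (9, unlisted and 8). Within 1 locus, then, day 7 counts were higher around the Pou5f1 start site and differed in direction from site to site in Cchcr1.

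Between the day 7 libraries, 11 of 63 Pou5f1 positions (17.5%) were past 2-fold higher with pargyline and 5 (7.94%) past 2-fold lower, beside 16.7% and 6.07% of all sites. With the deposited RPM the balance turned, to 3 higher and 12 lower, beside 9.17% and 15.4% of all sites. Over the locus, treated reads were 0.894 of untreated reads (0.831 to 0.960), with 11.96% of the 21081 gene loci lower. The counts were lower mainly between 5 and 20 kb upstream (0.742, 0.640 to 0.859), and downstream the ratio was 0.965 (0.880 to 1.06), or 0.743 (0.678 to 0.814) by deposited RPM. Among sites listed in both day 7 libraries, 5 Pou5f1 positions were higher and 3 lower, beside 11.7% and 5.15% of all such sites.

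At Nanog, reads were already present near the start site in undifferentiated cells and were not higher on day 7. Within 5 kb of the start site, 4, 3 and 5 of 8 positions were listed in undifferentiated, untreated and treated cells, with 59, 46 and 42 reads. The scaled ratio was 0.672 in untreated cells (0.447 to 1.01) and 0.873 in treated cells (0.574 to 1.32), and both counting intervals include 1. By deposited RPM both ratios were 0.54, with intervals of 0.358 to 0.806 and 0.354 to 0.815 that lie below 1. Of the 26 listed Nanog positions, 0 were listed in both day 7 libraries and not in undifferentiated cells, which with so few positions is near the background of 6.46%.

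The Nanog promoter holds 2 motifs, both intronic and 37 bp apart. No CCGG position lies between -2149 and +514, so the start site and the promoter stretch before it were not read. The promoter values of Nanog here describe these intronic sites alone. The site at +514 had 14 reads in undifferentiated, 14 in untreated and 7 in treated cells, and the site at +551 had 12, 14 and 6. Both were listed in every library, and the counts of the treated library were the lowest at each. Together they were at 0.822, 0.764 and 0.505 scaled reads, which is a ratio of 0.929 in untreated cells (0.525 to 1.65) and 0.614 in treated cells (0.289 to 1.24). By deposited RPM the ratios were 0.745 (0.421 to 1.32; log2 -0.43) and 0.379 (0.179 to 0.765; log2 -1.40), so the treated interval lay below 1 with that scaling alone. With 67 reads over the 3 libraries, a change of less than these intervals was not detectable. The log2 ratios of -0.11 and -0.70 lay below the medians of all promoters, and 34.0% and 10.3% of genes were lower. With 4 reads at every unlisted position of every promoter, 43.8% and 6.01% were lower, and the medians were -0.05 and 0.40.

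The single gene body motif of Nanog, at +3313 in an intron, was listed in treated cells alone with 11 reads, at least 3.37-fold the undifferentiated and 3.91-fold the untreated level. Upstream, the site at -2149 had 14, 18 and 7 reads and stayed within 2-fold. At -3014, 19 reads in undifferentiated and 11 in treated cells stood against none listed in untreated cells, which was at most 0.182 of the undifferentiated level. The 30 bases around -3014 have 5 copies with 1 mismatch elsewhere, and their part in these counts was not tested. The positions at -4502, -4563, -4705 and -5073, in the stretch that holds the upstream Nanog enhancer, were listed in no library. The 30 bases around each occur once on the assembled chromosomes. Reads in this stretch, if any, were below 5 at each position.

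**Figure D4:**
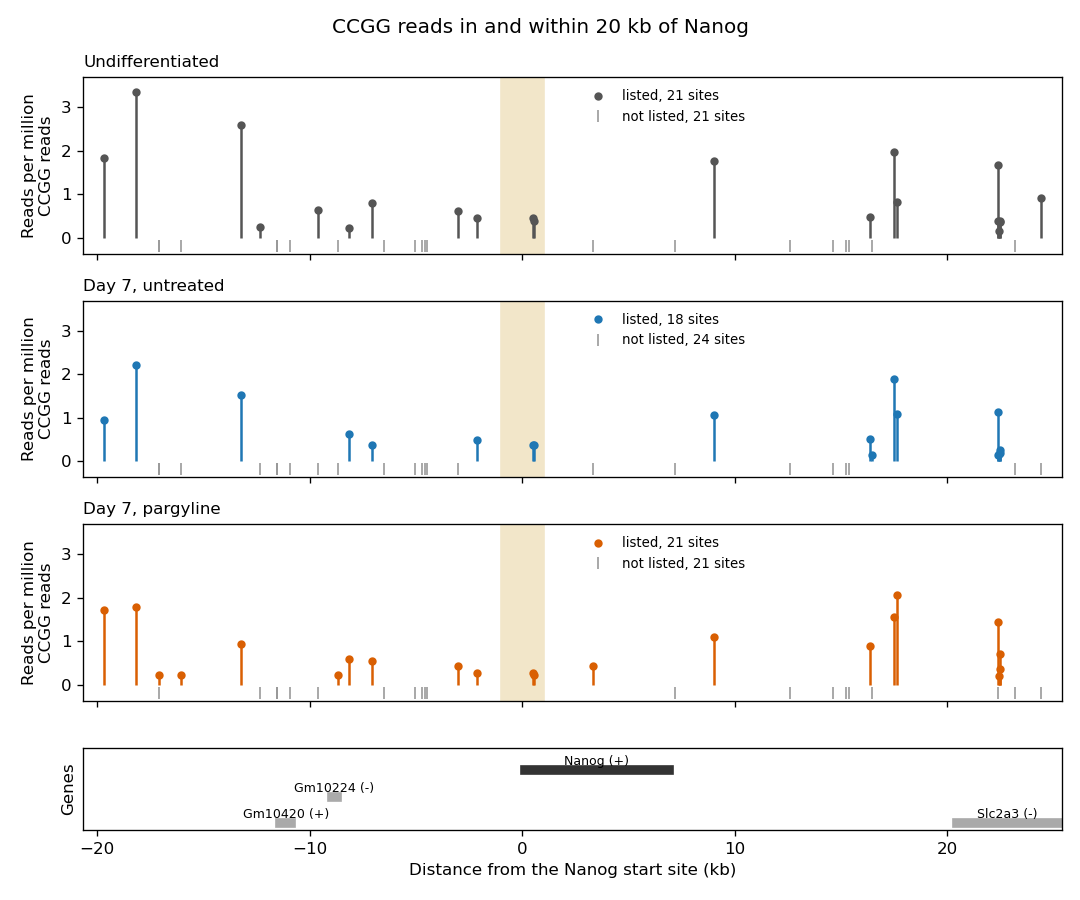
CCGG reads per 1000000 CCGG reads of the library (vertical axis) against the distance from the Nanog start site in kb, in the undifferentiated, untreated and treated (pargyline) libraries, with the annotated genes below. Stems are listed sites, grey ticks are positions not listed and the shaded band is the promoter. The 2 promoter stems are low in all 3 libraries, and the tallest stems, at -18177 and -13226, are highest in undifferentiated cells.

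Over the whole Nanog locus the reads were lower on day 7, at 646 in undifferentiated, 495 in untreated and 416 in treated cells. The scaled ratio was 0.661 in untreated cells (0.587 to 0.744) and 0.790 in treated cells (0.697 to 0.895). Of the 21081 gene loci, 2.04% had a lower untreated ratio and 8.15% a lower treated ratio. With pargyline the reads were 1.196-fold the untreated ones (1.05 to 1.37), and 9.09% of gene loci were higher. With this scaling the direction was opposite to that of the Pou5f1 locus in each of the 3 comparisons, whereas with the deposited RPM the Pou5f1 ratio of treated over undifferentiated cells (log2 -0.50) and the Nanog ratio of treated over untreated cells (log2 -0.12) turned to the direction of the other locus.

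The lower reads lay in both flanks of Nanog. Between 5 and 20 kb upstream, 306 reads in undifferentiated cells compared with 209 in untreated (0.589, 0.492 to 0.705) and 161 in treated cells (0.646, 0.530 to 0.784). Downstream, 281 reads compared with 240 (0.737, 0.618 to 0.878) and 213 (0.93, 0.775 to 1.12). In untreated cells both flanks were lower, and in treated cells the downstream interval included 1, although not by deposited RPM (0.575, 0.479 to 0.689).

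By site, 1 of 22 comparable Nanog positions (4.55%) was past 2-fold higher in untreated than in undifferentiated cells and 6 (27.3%) past 2-fold lower, beside 16.1% and 19.5% of all CCGG sites. In treated cells 4 of 25 (16%) were higher and 4 lower, beside 23.7% and 17.8%. Between the day 7 libraries, 6 of 23 (26.1%) were higher with pargyline and 0 lower, beside 16.7% and 6.07%. Most of these calls rest on a site unlisted in 1 of the libraries compared: among sites listed in both, 1 was higher and 2 lower in untreated cells, 3 and 1 in treated cells, and 1 and 0 between the day 7 libraries. With the deposited RPM these became 10 lower in untreated cells, 1 higher and 13 lower in treated cells, and 3 higher and 3 lower between the day 7 libraries. The shares of all sites by RPM, and of sites listed in both libraries, are those given for Pou5f1.

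The deepest Nanog site, at -18177, had 106, 81 and 46 reads in undifferentiated, untreated and treated cells (0.659, 0.487 to 0.889, and 0.532, 0.368 to 0.759). The intergenic site at -13226 had 82, 56 and 24 reads (0.589, 0.412 to 0.838, and 0.359, 0.218 to 0.572). Both therefore followed one order, with the undifferentiated library highest and the treated library lowest. The sites at -9597 with 20 reads and at -12365 with 8 were listed in undifferentiated cells alone, and -7078 had 25, 14 and 14 reads.

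One site upstream of Nanog went the other way, -8155, with 7, 23 and 15 reads (2.83-fold, 1.18 to 7.82, and 2.63-fold, 1.01 to 7.62). Around it lie Gm10420 and Gm10224, processed pseudogenes whose sequence occurs elsewhere in the genome. Of the 42 Nanog positions, 9 have surrounding bases with exact copies elsewhere, so that these bases alone do not place a read, and 8 of these 9 were among the 16 positions that no library listed. The ninth, at -8671 in Gm10224, was listed in treated cells alone with 6 reads, as were -16077 and -17097 outside the pseudogenes, with 6 reads each. Pou5f1 had no position with exact copies.

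Downstream of Nanog, the site at +17504 had 62, 69 and 40 reads and stayed within 2-fold. Its neighbour at +17638, 134 bp away, had 26, 40 and 53 reads, 2.50-fold higher in treated than in undifferentiated cells (1.54 to 4.17). The window ends in Slc2a3, which encodes the glucose transporter GLUT3. Its intron site at +24390 had 29 reads in undifferentiated cells and was listed in neither day 7 library, at most 0.119 and 0.169 of the undifferentiated level. In its 3′ UTR, +22358 had 12, 5 and no listed reads, and its exon site at +22491 had 11, 7 and 18.

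**Figure D5:**
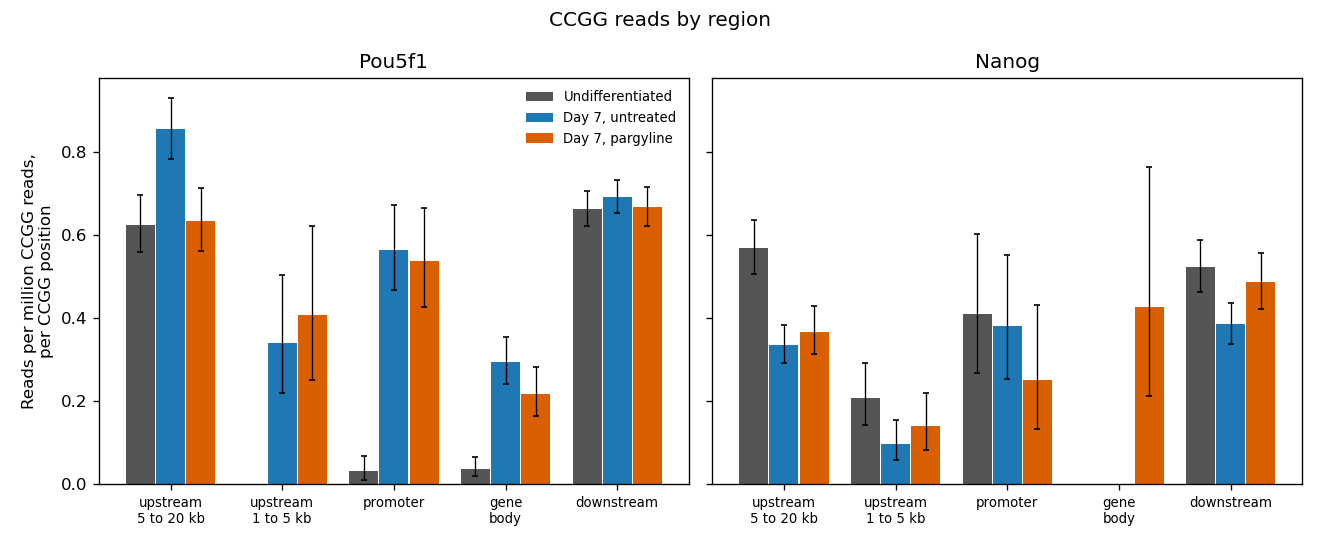
CCGG reads per 1000000 CCGG reads of the library and per CCGG position (vertical axis) in 5 regions of the Pou5f1 and Nanog loci, for the undifferentiated, untreated and treated (pargyline) libraries. Bars count listed reads only, error bars are 95% exact Poisson intervals, and a missing bar is a region with no listed site. At Pou5f1 the undifferentiated bars are near 0 in the promoter and gene body and level with the others downstream, and at Nanog the promoter bars overlap in their intervals.

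Taken per site, the loci were similar in depth. The median listed Pou5f1 site had 19, 23 and 19 reads in undifferentiated, untreated and treated cells, with ranges of 5 to 129, 6 to 150 and 6 to 89. The median listed Nanog site had 19, 18.5 and 14 reads, with ranges of 5 to 106, 5 to 81 and 5 to 53. The surroundings differed in base composition, with a median GC content of 52.8% in the 500 bp windows of Pou5f1 positions and 45.9% in those of Nanog. CpG content was low at 73 of 81 and 37 of 42 positions, respectively.

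Other genes of the pluripotency network were read at their promoters from a list of 29. Of these, 7 had fewer than 20 reads over the 3 libraries and were given no ratio. Of the other 22, in untreated cells 10 were past 2-fold higher, 0 lower and 12 within 2-fold, beside 25.8% of all promoters higher and 9.48% lower. Of the 10, 6 (Klf5, Tfcp2l1, Lin28a, Sall4, Fgf4 and Gdf3) had 0 listed undifferentiated reads, so they reached the minimum through the day 7 libraries alone, and the 12 include Stat3, with 0, 0 and 20 listed reads. The counts over the 22 are therefore a description and were read as no result about the list. In treated cells 13 were higher, 7 of them with 0 listed undifferentiated reads, with 8 within 2-fold and 1 lower (Tcl1, a cofactor of AKT kinase, with 39, 63 and 11 reads), beside 40.8% and 6.99% of all promoters. The median log2 ratios of the list were 0.94 and 1.34, beside 0.27 and 0.68 over all promoters. With 4 reads at every unlisted position of every promoter, these medians came to 0.15 and 0.54 beside -0.05 and 0.40, and 2 and 4 of the 22 were past 2-fold higher and 0 lower, beside 3.32% and 11.8% of all promoters higher and 4.75% and 3.52% lower. Without this fill, Pou5f1, with 4.16, was above and Nanog, with -0.11, below the median of this list.

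At the ends of the list, Fgf4, the fibroblast growth factor that OCT4 and SOX2 activate in ESCs, had 0 listed reads in undifferentiated, 53 in untreated and 59 in treated cells. Klf2, a Krüppel-like factor of the naive state, had 5, 49 and 13, so the untreated library was high and the treated one lay between. The lowest untreated ratios were those of Nr5a2, a nuclear receptor that binds the Pou5f1 regulatory region, with 123, 77 and 78 reads (log2 ratio -0.89), and of the orphan nuclear receptor gene Esrrb, with 17, 11 and 51 (-0.84). Esrrb was nevertheless past 2-fold higher in treated cells (log2 ratio 1.88).

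Among genes with comparable promoter depth, the patterns most like that of Pou5f1 were those of Psmg1 (6, 92 and 78 reads in undifferentiated, untreated and treated cells), C1ql1 (0 listed, 63 and 47) and Mtmr6 (0 listed, 65 and 46). Their distances were 0.42, 0.66 and 0.66 in the plane of the 2 log2 ratios to undifferentiated cells, among 5433 genes compared over 3 libraries. Most like Nanog were Pi4k2b (50, 54 and 26; distance 0.0029), Mixl1 (19, 20 and 9; 0.033) and Gm8122 (50, 56 and 26; 0.046), among 5978 genes. With 3 libraries, such likeness is a description of the counts.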

How the data were processed

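MethylRAD libraries of E14Tg2A cells were analysed, 1 per condition. Per the submitters' processing notes, the authors used FastQC 0.11.3 (the study's methods name another version of it) and Bowtie2 2.3.3 with GRCm38, and per the methods they kept uniquely mapped reads. For each methylated CCGG, CCAGG or CCTGG site with at least 5 reads, the authors deposited the count, without normalization, and an RPM value (reads scaled to the mapped reads of the library), which was used only as an alternative. Which copies come from PCR is not known, so intervals cover counting error only.

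Only CCGG rows were compared, since CCAGG and CCTGG counts are shared between lists. Counts were divided by the CCGG total of the library (25767119 to 36654600 reads). An unlisted site was taken as 0 reads in sums and as 4 reads in bounds and in folds of single sites. Folds and promoter ranks with 4 reads at every unlisted position were added after the data were seen. Ratios carry 95% exact (Clopper-Pearson) intervals, shares Wilson intervals and scaled counts exact Poisson intervals. The limit for a higher or lower site was 2-fold, which a site could pass within counting error. A site was comparable when at least 1 of the 2 libraries listed it. The promoter was within 1 kb of the start site of the principal transcript, and gene body, upstream and downstream exclude it. Annotation was GENCODE M21, and sequences and CpG content (500 bp windows) were read from the GRCm38 reference. Copies of the 30 bases around a site were searched on the assembled chromosomes, also with 1 mismatch.

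The sites given singly were those within 5 kb of a start site, those past 2-fold against the undifferentiated library and the 3 deepest of each locus, and 5 more (Pou5f1 +8578, Nanog -17097, -16077, -8671 and -5073) were named as neighbours or after their values were seen. From the pluripotency list the 2 highest and 2 lowest untreated ratios were named, and for each gene the 3 most similar promoters, after 4 reads were added to each scaled count. Tcl1, Stat3, Klf5, Tfcp2l1, Lin28a, Sall4 and Gdf3 were named after their values were seen. The members, lists and limits were chosen with earlier results of these data known. The site calls and intervals were tested on simulated counts at sites with at least 5 reads in both libraries, and the calls only at the deeper of these. Calls that rest on 4 reads at an unlisted site were not covered. Figures were drawn with matplotlib 3.10.9, and statistics used scipy 1.17.1, pandas 2.3.3 and numpy 2.4.6 under Python 3.11.15. Expression and enhancer annotation were not analysed here.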

Additional observations from a re-analysis of the deposited data

Results flagged for a closer look

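Reads outside the CCGG motif were present at both loci and differed by list. CCAGG sites numbered 49 in the treated list at the Pou5f1 locus, against 15 in the undifferentiated list, and 22 at the Nanog locus, against 6. These sites enter no comparison above, and they stand out because the treated list holds more of them than the undifferentiated one. The undifferentiated and untreated lists gave the same CCAGG counts at all 15 Pou5f1 sites (199 reads) and all 6 Nanog sites (74 reads), while the treated list shared 15 and 2 of these sites with the untreated one and had an equal count at 0 of them. CCTGG counts were equal in all 3 lists, at 17 Pou5f1 sites with 284 reads and at 5 Nanog sites with 47 reads. Counts that are equal between lists are not separate measurements of the conditions, so the larger number in treated cells could not be compared with that in other cells.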

How the results depend on the processing

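The following values are log2 ratios or numbers of sites. With 1 library per condition, no library could be left out and no paired analysis was possible because the labels give no replicate numbers. With the deposited RPM in place of the CCGG total, the Pou5f1 locus had 0.038 untreated over undifferentiated, -0.50 treated over undifferentiated and -0.54 treated over untreated, and the Nanog locus -0.92, -1.03 and -0.12, so the second Pou5f1 and the third Nanog direction turned. RPM divides by mapped reads, which were 1.446 and 1.319 times those of the undifferentiated library in untreated and treated cells, against 1.159 and 0.815 times for CCGG reads. Sites past 2-fold by RPM were, at Pou5f1, 13 higher in untreated and 11 higher in treated over undifferentiated cells, and 3 higher and 12 lower in treated over untreated cells. At Nanog they were 10 lower, then 1 higher and 13 lower, then 3 higher and 3 lower. With a 10 kb window, the Pou5f1 ratios to undifferentiated cells were 0.99 and 0.75, with 13, 27 and 23 listed sites, and 9, 8 and 10 at Nanog. With 4 reads at unlisted sites that another library listed, the Pou5f1 promoter had 2.28 in both comparisons with undifferentiated cells, and with 4 reads at every unlisted position, chosen after seeing the data, 2.09 and 2.10. Without its deepest site, its treated over untreated ratio was 0.48, and the ratios to undifferentiated cells could not be given, because no undifferentiated read was left. With a minimum of 10 reads, 13 Nanog sites were listed in treated cells, and the same promoter ratios could not be given. Among sites listed in both libraries, Pou5f1 had 8 higher and 4 lower in untreated cells, 9 higher in treated cells, and 5 higher and 3 lower between them, and Nanog 2 lower, 1 lower and 1 higher. At 1.5-fold, Pou5f1 had 14 lower in treated over untreated cells (16.66% of all sites), and Nanog 12 lower in untreated cells (28.66%), 8 higher and 10 lower in treated cells (36.3% and 27.4%) and 3 lower between them (16.66%). Apart from these by-construction changes the causes were not tested. A promoter within 3 kb, motifs of the reference alone, thinning to the smallest CCGG total and a total without sites over 10000 reads changed none of their 6, 18, 6 and 12 values by more than the limits set for each.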
